A study of Homo sapiens with 6 samples.

Results

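Translation initiation factors were followed here as a group of genes in LNCaP cells, an androgen-sensitive line from a supraclavicular lymph node metastasis of prostate cancer. The group holds the genes whose annotated symbol starts with EIF and a digit from 1 to 6, without the eIF2 kinases, the EIF2C (Argonaute) genes, the eIF4E-binding proteins, the EIF5A genes and pseudogenes. Of 42 such genes with a named probe, 39 reached a mean log2 signal of 7 over the 6 arrays and were tested, out of 10502 named genes that reached it in the whole series. The 3 arrays labelled miR-331-3p came from cells transfected for 24 h with 30 nM of a precursor of that microRNA, and the 3 arrays labelled miR-NC from cells given the same dose of a negative control precursor for the same time. Both groups therefore carry the lipid transfection, and no arrays of untransfected cells were analysed here. Total RNA was read on Illumina Human-6 v3 beadchips. The replicates carry the letters A, B and C, and neither the labels nor the methods say which array came from which culture, so the p-values measure only the spread between these arrays, which may be technical.

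Initiation is the step at which a ribosome is placed on the start codon of an mRNA. The eIF4F complex (the cap-binding protein eIF4E, the scaffold eIF4G and the helicase eIF4A) binds the capped start of the mRNA, while eIF1, eIF1A, eIF3 and eIF5 join the small ribosomal subunit, to which eIF2 brings the initiator tRNA bound to GTP. The subunit then scans to the start codon, eIF2 is released with GDP and recharged by the exchange factor eIF2B, and eIF5B joins the large subunit. A microRNA guides Argonaute proteins to mRNAs that pair with its seed, and repression acts on both the stability and the translation of those mRNAs.

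The mature microRNA that the precursor gives rise to is shown because its name defines the groups. It lies on the plus strand at chr12:95308480-95308500 of GRCh38.p14, and the sequence is that of RefSeq, written from its start with the seed (bases 2 to 8) in capitals.
hsa-miR-331-3p: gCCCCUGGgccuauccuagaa
A site that pairs with the whole seed would read CCAGGGG in DNA letters. No transcript sequences of the initiation factors were searched for it, and no other human mature microRNA in the RefSeq table (0 found) has the same seed.

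All values below are log2 signals of single probes that the authors had background corrected, variance stabilized and quantile normalized. A difference is the mean of the arrays labelled miR-331-3p minus the mean of those labelled miR-NC. RRBP1, with the largest difference of all probes, had 10.69, 10.79 and 10.76 in arrays labelled miR-331-3p A, B and C and 8.71, 8.76 and 8.75 in those labelled miR-NC. ERBB2 likewise averaged 10.80 ± 0.12 in the miR-331-3p arrays and 9.69 ± 0.014 in the miR-NC arrays (SD, n = 3 each). These directions are opposite to those of the study. Were the labels of the groups swapped, every direction given below would turn. The groups are therefore called by their labels throughout. All 7 prostate luminal markers measured (KLK3, KLK2, FOLH1, TMPRSS2, HOXB13, KRT8 and KRT18) lay above the minimum, at mean log2 signals from 8.27 to 12.69, and the basal keratins KRT5 and KRT14 lay under it. Of the fibroblast, leukocyte and endothelial markers, COL1A2, COL3A1 and PTPRC lay under it, and COL1A1, CD68, PECAM1 and VWF lay between 7.10 and 8.22. Between arrays the correlation over the 16752 probes tested ran from 0.982 to 0.996. The array labelled miR-331-3p C stood apart, with the lowest array weight (0.433, against 0.963 to 1.56 for the other arrays) and 14 probes at least 1.5 log2 units under the median of the other arrays in this array alone, against 0 such probes in each other array. In RNA of whole cultures, fewer cells that express a gene and less RNA per cell cannot be told apart.

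Most initiation factor genes differed little between the labelled groups. The helicase gene EIF4A2 was higher in arrays labelled miR-331-3p, by 1.40 fold, and EIF2S1 and EIF2A were lower, each by 1.28 fold. These 3 of the 39 genes (7.69%) passed limma's test at an adjusted p of 0.05, against a background of 7.96% of all probes tested in either direction (4.3% higher and 3.66% lower). The share of called genes, each read by its brightest probe, was thus near that of all probes tested. Over the 52 tested probes of these genes the share was 5.77%. The median difference of the 39 genes was -0.023 on the log2 scale, against -0.003 over all probes. The differences were positive for 18 genes and negative for 21, ran from -0.36 to 0.48, and were under 0.1 in size for 24 genes. No gene reached 1.5 fold, against 260 of the 16752 probes. The 95% interval of the difference lay within 1.5 fold in both directions for 38 of the 39 genes (97.4%), EIF4A2 being the exception, and for 93.7% of all probes. Each interval is for its own gene and is not adjusted for their number. By the methods' t-test, none of the 39 genes passed after Benjamini-Hochberg adjustment (0 of 39, with a background of 0.979% of probes) and 2 had a positive and 4 a negative difference at an unadjusted p under 0.05, together 15.4% against 17.9% of all probes. By limma without adjustment, 2 genes had a positive and 5 a negative difference at that p, against 22.1% of all probes in either direction.

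**Figure D1:**
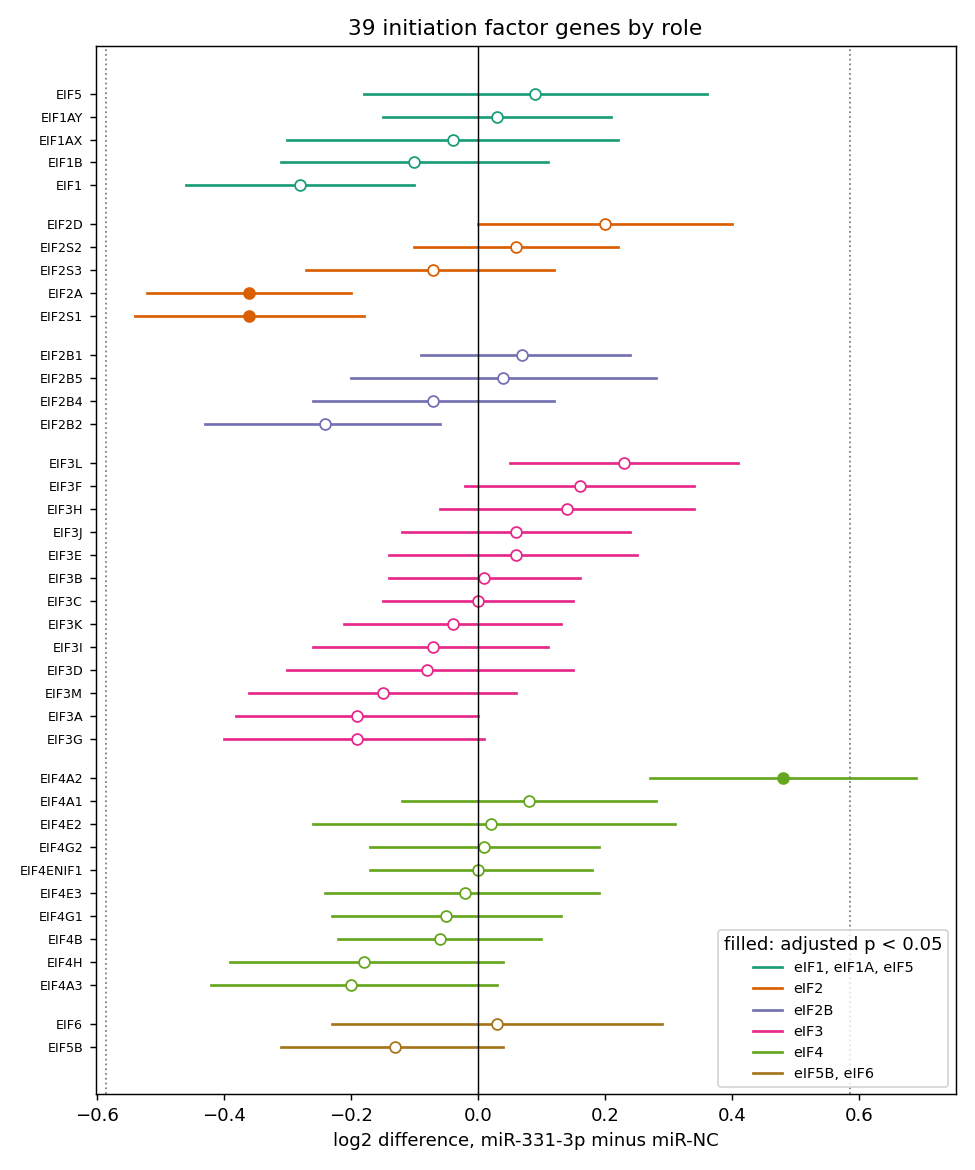
Log2 difference (arrays labelled miR-331-3p minus arrays labelled miR-NC, n = 3 each) for the 39 initiation factor genes, grouped by role. Points are differences of group means, lines their 95% intervals from limma, filled points an adjusted p under 0.05, and dotted lines 1.5 fold in either direction. Only EIF4A2, EIF2A and EIF2S1 are filled, and only the interval of EIF4A2 crosses a dotted line.

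EIF4A2 encodes the second of the closely related eIF4A helicases, which unwind the start of an mRNA for the ribosome. Its log2 signal was 12.91, 12.86 and 12.90 in arrays labelled miR-331-3p A, B and C, and 12.52, 12.51 and 12.19 in those labelled miR-NC A, B and C. The miR-331-3p arrays lay close together and all above the miR-NC arrays, among which C was the lowest. The difference was 0.48 (standard error 0.095, 95% interval 0.27 to 0.69, limma adjusted p = 0.011). It held with each array left out, at 0.37 to 0.54 (adjusted p from 0.010 to 0.040), the lowest value without miR-NC replicate C, but not under the methods' t-test (adjusted p = 0.16). At 3 arrays against 3, an exact two-sided permutation test of a single gene cannot give a p under 0.1.

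EIF4A1, the major cytoplasmic helicase of the same family, was not called. Its mean log2 signal of 13.68 lay near 13.94, the highest value on any array. Whether so bright a probe could show a further rise was not tested. It had 13.73, 13.74 and 13.68 in arrays labelled miR-331-3p and 13.83, 13.49 and 13.60 in those labelled miR-NC, a difference of 0.08 (95% interval -0.12 to 0.28, limma adjusted p = 0.69), and the groups overlapped. Within each array, the EIF4A2 probe minus the EIF4A1 probe gave -0.82, -0.88 and -0.79 in the miR-331-3p arrays and -1.30, -0.98 and -1.42 in the miR-NC arrays. These did not overlap, and the mean shifted by 0.40, which restates the differences of 0.48 for EIF4A2 and 0.08 for EIF4A1. This comparison of the paralogues was chosen after their values were seen, and the two-sided exact permutation test gave p = 0.1, the smallest that 3 arrays against 3 allow. EIF4A3, the helicase of the exon junction complex, had a difference of -0.20 (95% interval -0.42 to 0.03, limma adjusted p = 0.29).

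**Figure D2:**
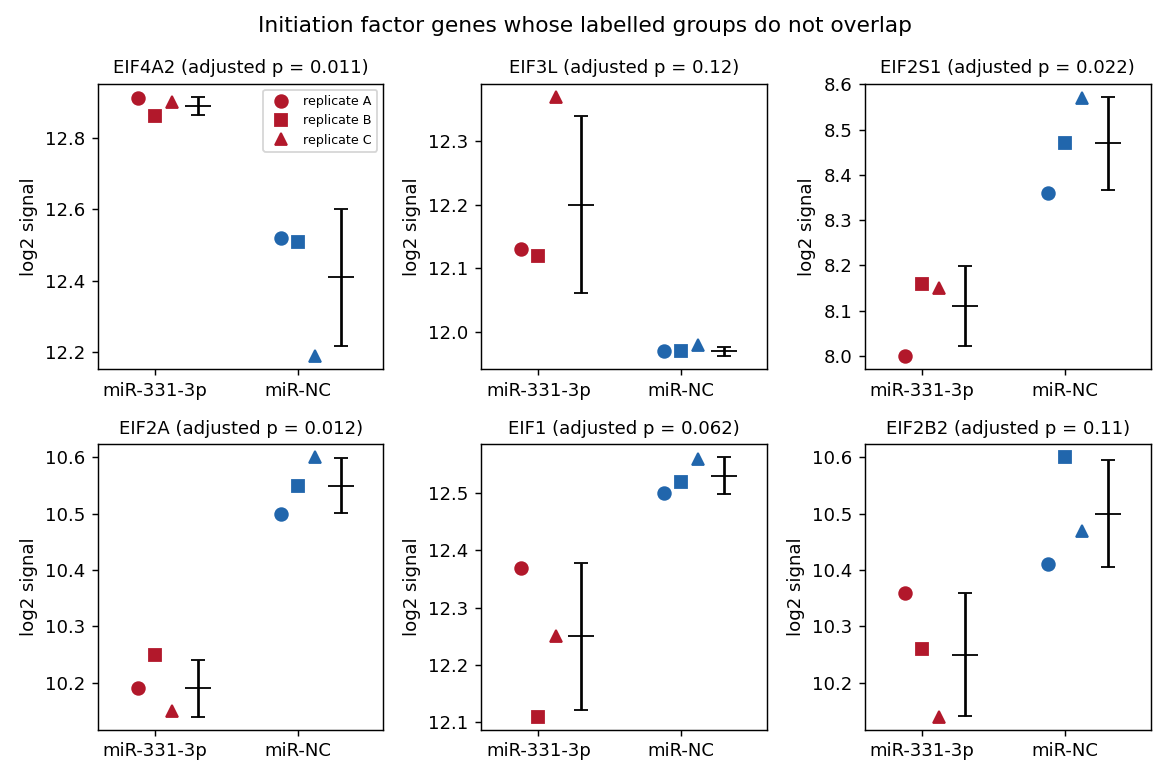
Log2 signal of each array (replicates A, B and C as circle, square and triangle) for the 6 initiation factor genes whose labelled groups do not overlap, miR-331-3p in red and miR-NC in blue, with the group mean ± SD beside the points. Each panel has its own axis, which does not start at 0. EIF4A2 and EIF3L are higher in the miR-331-3p arrays, and EIF2S1, EIF2A, EIF1 and EIF2B2 lower. The adjusted p of limma is above 0.05 for EIF3L, EIF1 and EIF2B2.

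Both called decreases were among the 5 tested genes grouped here with eIF2. This is 40% of them, against 3.66% of all probes called lower. Of the 3 genes of eIF2 subunits, 1 was called. With so few genes, these shares are no result about eIF2 as a group, and no set test was run. EIF2S1 encodes the alpha subunit of eIF2, whose phosphorylation by the eIF2 kinases lowers initiation under stress. It had 8.0, 8.16 and 8.15 in arrays labelled miR-331-3p and 8.36, 8.47 and 8.57 in those labelled miR-NC. The groups did not overlap. The difference was -0.36 (standard error 0.082, 95% interval -0.54 to -0.18, limma adjusted p = 0.022). With 1 array left out the difference ran from -0.41 to -0.31, and the call was lost without miR-331-3p replicate A (adjusted p = 0.066) or B (0.053) and without miR-NC replicate B (0.085) or C (0.11).

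EIF2A is a separate gene from that of the alpha subunit despite its name, and encodes a protein that can deliver initiator tRNA without GTP. It had 10.19, 10.25 and 10.15 in arrays labelled miR-331-3p, against 10.50, 10.55 and 10.60 in those labelled miR-NC. Both groups were tight, with an SD of 0.050 in the miR-331-3p arrays and 0.049 in the miR-NC arrays. The difference was -0.36 (standard error 0.072, 95% interval -0.52 to -0.20, limma adjusted p = 0.012). With 1 array left out the difference ran from -0.38 to -0.33, and the call was lost without miR-NC replicate B (-0.36, adjusted p = 0.051) or C (-0.33, 0.065). Under the methods' t-test the adjusted p was 0.060. The number of initiation factor genes called lower was thus 0 without miR-NC replicate B or C and 1 without miR-331-3p replicate B, against 2 with all arrays.

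The other eIF2 subunits did not pass the test. EIF2S2, the beta subunit, had 7.63, 7.51 and 7.57 in arrays labelled miR-331-3p and 7.45, 7.53 and 7.54 in those labelled miR-NC, a difference of 0.06 (95% interval -0.10 to 0.22). EIF2S3, the gamma subunit that binds the initiator tRNA, had 11.66, 11.65 and 11.39 in arrays labelled miR-331-3p and 11.57, 11.72 and 11.63 in those labelled miR-NC. Its difference was -0.07 (95% interval -0.27 to 0.12), and the miR-331-3p C array was the lowest of the 6. Within each array, EIF2S1 minus EIF2S2 was 0.37, 0.65 and 0.58 in the miR-331-3p arrays and 0.91, 0.94 and 1.02 in the miR-NC arrays, without overlap. EIF2S1 minus EIF2S3 was -3.66, -3.49 and -3.24 in the miR-331-3p arrays and -3.21, -3.25 and -3.06 in the miR-NC arrays, which overlapped. The mean shifts of -0.42 and -0.29 restate the difference of -0.36 for EIF2S1 beside those of its partners. These within-array comparisons, too, were chosen after the values were seen. The exact permutation test gave p = 0.1, the smallest it allows here, for EIF2S2 and p = 0.2 for EIF2S3 as the partner. EIF2D, a factor linked to ribosome recycling and to initiation without eIF2, had the largest positive difference of these genes, 0.20 (95% interval -0.00 to 0.40, limma adjusted p = 0.23), and its groups overlapped.

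Of the exchange factor eIF2B, 4 genes were tested. By limma after adjustment 0 of 4 passed, against 7.96% of all probes. EIF2B2 had an unadjusted limma p of 0.015, and 22.1% of all probes had one under 0.05. By the methods' t-test after adjustment 0 of 4 passed, against 0.979%. With 4 genes, 0 calls cannot be told apart from these background shares. EIF2B2, the beta subunit, had 10.36, 10.26 and 10.14 in arrays labelled miR-331-3p and 10.41, 10.60 and 10.47 in those labelled miR-NC. The groups did not overlap, though miR-331-3p A lay close to miR-NC A. Its difference was -0.24 (95% interval -0.43 to -0.06, limma adjusted p = 0.11). EIF2B1, the alpha subunit, EIF2B4, the delta subunit, and EIF2B5, the catalytic epsilon subunit, had differences of 0.07, -0.07 and 0.04. EIF2B5 varied more within the miR-331-3p arrays (SD 0.24) than within the miR-NC arrays (SD 0.060). EIF2B3 was not analysed here.

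The 13 tested genes of eIF3, the multi-subunit scaffold that holds the scanning ribosome to the mRNA, gave no call. By limma after adjustment 0 of 13 passed, against 7.96% of all probes. EIF3L and EIF3A had an unadjusted limma p under 0.05, against 22.1% of all probes. By the methods' t-test after adjustment 0 of 13 passed, against 0.979%. With 13 genes, 0 calls cannot be told apart from these background shares. The differences of the 13 genes were positive for 6 and negative for 7, with a median of -0.002, and ran from -0.19 to 0.23. All 13 intervals lay within 1.5 fold. EIF3L had the highest difference. Its log2 signal was 12.13, 12.12 and 12.37 in arrays labelled miR-331-3p and 11.97, 11.97 and 11.98 in those labelled miR-NC, without overlap. The difference of 0.23 (95% interval 0.05 to 0.41, limma adjusted p = 0.12) came to 0.15 (adjusted p = 0.28) once the miR-331-3p C array was left out.

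Among the core subunits, EIF3A had a difference of -0.19 (95% interval -0.38 to -0.00, limma adjusted p = 0.22), and its groups overlapped. EIF3B was the steadiest of the bright genes, at 12.84, 12.83 and 12.87 in arrays labelled miR-331-3p and 12.84, 12.82 and 12.85 in those labelled miR-NC, a difference of 0.01 (95% interval -0.14 to 0.16). EIF3G, an RNA-binding subunit, and EIF3I, its WD-repeat neighbour, had -0.19 and -0.07. EIF3C lay just inside the minimum signal at 7.02, where its difference of -0.00 says little, and it has a near-identical copy, EIF3CL, so that its probe may read both. EIF3E had 12.94, 12.88 and 12.93 in arrays labelled miR-331-3p and 12.68, 12.95 and 12.95 in those labelled miR-NC, a difference of 0.06 (95% interval -0.14 to 0.25). EIF3D, a subunit that can itself bind the cap, had -0.08, and the subunits EIF3F, EIF3H, EIF3J, EIF3K and EIF3M had 0.16, 0.14, 0.06, -0.04 and -0.15.

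Of the factors that keep the scanning ribosome open and check the start codon, EIF1 came nearest to a call. This small protein rejects wrong start codons. It had 12.37, 12.11 and 12.25 in arrays labelled miR-331-3p and 12.50, 12.52 and 12.56 in those labelled miR-NC. All 3 miR-331-3p arrays lay under the miR-NC arrays, which lay close together. The difference of -0.28 (standard error 0.082, 95% interval -0.46 to -0.10) missed the threshold (limma adjusted p = 0.062), and passed it with array weights (adjusted p = 0.027), without miR-331-3p replicate A (0.038) and with the mean of all probes of each gene (0.0499). Its paralogue EIF1B had -0.10 (95% interval -0.31 to 0.11). EIF1AX and EIF1AY, the X-linked and Y-linked genes of eIF1A, had -0.04 and 0.03. EIF5, which stimulates GTP hydrolysis by eIF2, had 10.37, 10.26 and 9.96 in arrays labelled miR-331-3p and 10.26, 10.20 and 9.86 in those labelled miR-NC. The C array was the lowest in both groups, and the difference was 0.09 (95% interval -0.18 to 0.36). The genes of the last step, EIF5B, the GTPase that joins the ribosomal subunits, and EIF6, which keeps free large subunits apart from small ones, had -0.13 (95% interval -0.31 to 0.04) and 0.03 (95% interval -0.23 to 0.29).

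The remaining eIF4 genes did not pass the test. EIF4G1, the main scaffold of eIF4F, had 12.05, 12.08 and 12.28 in arrays labelled miR-331-3p and 12.23, 12.19 and 12.12 in those labelled miR-NC, a difference of -0.05 (95% interval -0.23 to 0.13). EIF4G2, a shorter relative that lacks the eIF4E-binding part, had 12.73, 12.87 and 12.98 in arrays labelled miR-331-3p and 12.90, 12.83 and 12.82 in those labelled miR-NC, a difference of 0.01 (95% interval -0.17 to 0.19). Neither scaffold gene separated the groups. EIF4B and EIF4H, cofactors of the helicase, had -0.06 and -0.18. EIF4E2, a cap-binding relative tied to translational repression, had the largest spread within groups of all 39 genes (SD 0.20 in the miR-331-3p arrays and 0.25 in the miR-NC arrays) and a difference of 0.02. EIF4E3 and EIF4ENIF1, which carries eIF4E into the nucleus, had -0.02 and 0.00. EIF4E itself was not tested: its brighter probe lay just outside the minimum, at a mean log2 signal of 6.998. EIF4E1B and EIF1AD were likewise not tested, EIF4G3 was not analysed here, and the noncoding EIF3J-DT, whose symbol also starts with EIF3, was not counted (difference -0.03).

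Across the 39 genes, 6 (15.4%) had groups that did not overlap, EIF4A2 and EIF3L on the higher side and EIF2S1, EIF2A, EIF1 and EIF2B2 on the lower. The share of all probes with groups that did not overlap was 26.7% (13.4% higher and 13.3% lower). The median SD within groups was 0.107 for the initiation factor genes and 0.099 for all probes. The median deviation of an array from the median of the other 5 was small, from -0.051 in miR-331-3p B to 0.034 in miR-331-3p A. The median difference between the labelled groups was -0.023 with all arrays. It was 0.005 without miR-331-3p B and -0.052 without miR-331-3p C. Both changes exceeded the SD of the median gene between replicates (0.026). The largest spreads within groups after EIF4E2 were those of EIF5, EIF6 and EIF1AX, at pooled SDs of 0.21, 0.20 and 0.19. EIF6 had 10.62, 10.90 and 11.13 in arrays labelled miR-331-3p and 10.96, 10.76 and 10.85 in those labelled miR-NC, so that its miR-331-3p arrays were both the highest and the lowest of the 6.

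**Figure D3:**
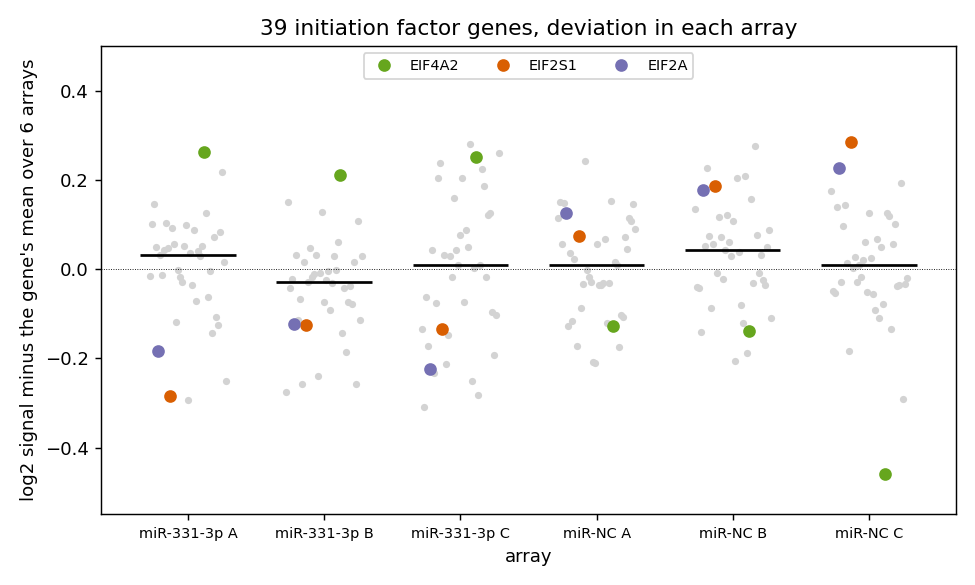
Log2 signal of each of the 39 initiation factor genes minus its mean over the 6 arrays, by array (miR-331-3p A to C, then miR-NC A to C). Grey points are single genes, black bars the median gene of an array, and coloured points EIF4A2, EIF2S1 and EIF2A. The medians stay near 0 in every array, while EIF4A2 lies above 0 in the 3 miR-331-3p arrays and EIF2S1 and EIF2A lie under it.

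Probes of 1 gene did not always give the same sign. Of the 39 genes, 29 had 1 tested probe, among them EIF4A2, EIF2S1 and EIF2A, whose calls therefore have no second probe beside them. The other 10 genes had 13 further tested probes, and in 8 of these genes the probes differed in sign. Limma called 0 of the 13 further probes, with 1 at an unadjusted p under 0.05. Over all probes these shares were 7.96% and 22.1%. For EIF3M the brighter probe had -0.15 and the dimmer 0.17, and for EIF4G1 -0.05 and 0.18. EIF3B had -0.18 and -0.16 at its dimmer probes, against 0.01 at the brightest. EIF4H had -0.18 and 0.00 at its bright probes and -0.29 at a dim one, at 7.06, 6.98 and 6.95 in arrays labelled miR-331-3p and 7.34, 7.38 and 7.12 in those labelled miR-NC (limma adjusted p = 0.067). That probe passed by limma without miR-NC replicate C (-0.37, adjusted p = 0.047) and with an intensity trend in the variance (adjusted p = 0.029). In the other settings that tested it, by limma or the methods' t-test, it did not pass (adjusted p from 0.057 to 0.24). Its mean log2 signal of 7.14 lay near the minimum.

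The third probe of EIF4G2 differed most from the others of its gene. It had 9.99, 9.73 and 7.73 in arrays labelled miR-331-3p A, B and C and 9.86, 10.02 and 9.90 in those labelled miR-NC. The miR-331-3p C array thus stood at -2.17 from the median of the others, and at 0.15 and -0.01 from it at the other EIF4G2 probes. The difference of -0.78 (standard error 0.44, limma adjusted p = 0.34) was -0.07 with that array left out (adjusted p = 0.77). This is 1 of the 14 probes low in that array alone.

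**Figure D4:**
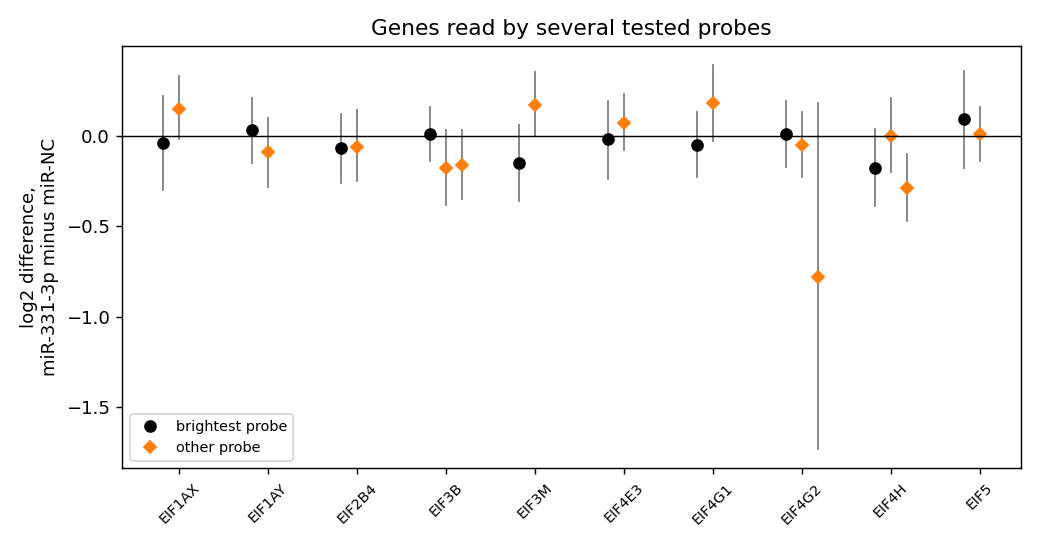
Log2 difference (arrays labelled miR-331-3p minus arrays labelled miR-NC) at every tested probe of the 10 initiation factor genes read by several probes. Black circles are the brightest probe of a gene, orange diamonds its other probes, and grey lines 95% intervals from limma. The third EIF4G2 probe, at -0.78, has the widest interval, and the EIF3M and EIF4G1 probes lie on both sides of 0.

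Genes that regulate or assist the initiation factors were read from a list of 34, of which 30 were tested. Of these, 2 were lower and none was higher at the adjusted threshold (6.67%, against 7.96% of all probes), with a median difference of -0.041. At an unadjusted p under 0.05, 7 had a negative and 3 a positive difference, against 22.1% of all probes in either direction. PABPC4, a cytoplasmic poly(A)-binding protein, had 11.49, 11.64 and 11.55 in arrays labelled miR-331-3p and 12.04, 11.98 and 12.02 in those labelled miR-NC. Its difference of -0.46 (standard error 0.073, limma adjusted p = 0.0035) was joined by -0.53 at its second probe (adjusted p = 0.0064), and both calls held with each array left out. PABPC1, its better known relative, had 0.14 and 0.28 at its probes and did not pass (limma adjusted p = 0.33 and 0.26).

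MCTS1, a partner of DENR in reinitiation and recycling, had 7.97, 7.95 and 8.02 in arrays labelled miR-331-3p and 8.33, 8.23 and 8.26 in those labelled miR-NC. Its difference was -0.29 (standard error 0.071, limma adjusted p = 0.029), a call that held without miR-331-3p C and was lost without any 1 of the other arrays (adjusted p from 0.065 to 0.10). DENR had -0.08. The eIF2 kinases EIF2AK1, EIF2AK2, EIF2AK3 and EIF2AK4 had -0.04, -0.05, 0.04 and -0.06, none past the test. The eIF4E-binding proteins EIF4EBP1 and EIF4EBP2, which sequester eIF4E when they are not phosphorylated, had -0.31 and -0.26 (limma adjusted p = 0.066 and 0.073). The labelled groups did not overlap for either gene, as at 13.3% of all probes on the lower side. Without miR-331-3p replicate C, 5 genes of the list passed in place of 2, EIF4EBP1, EIF4EBP2 and MKNK2 among them, and without any 1 of the other arrays 1 gene passed, PABPC4. MKNK2, which phosphorylates eIF4E, and MTOR had 0.29 and 0.26 (limma adjusted p = 0.099 and 0.066 with all arrays).

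The later steps of translation were read from a list of 17 genes, of which 15 were tested, with a median difference of -0.023. EEF2K, the kinase that inhibits the elongation factor eEF2, had 9.95, 9.99 and 10.07 in arrays labelled miR-331-3p and 9.69, 9.69 and 9.54 in those labelled miR-NC, a difference of 0.36 (standard error 0.077, limma adjusted p = 0.016). This call was lost without miR-331-3p replicate B (adjusted p = 0.052) or miR-NC replicate C (0.083). ETF1, the release factor eRF1, had 10.33, 10.58 and 10.59 in arrays labelled miR-331-3p and 11.21, 10.91 and 11.06 in those labelled miR-NC. Its difference of -0.56 (standard error 0.10, limma adjusted p = 0.0062) was matched in direction by its second probe at -0.42 (adjusted p = 0.0087), and both held with each array left out. The elongation factor genes EEF1A1, EEF1G and EEF2 had -0.03, 0.01 and 0.03 at their brightest probes. Those of EEF1A1 and EEF1G, at mean log2 signals of 13.85 and 13.75, lay near the highest value on any array (13.94). Their ability to show a further rise was not tested. EEF1B2 differed by probe. Its bright probes had -0.07 and 0.08, while its dimmer probes had -0.36 and -0.49 and passed (limma adjusted p = 0.013 and 0.011). Both EEF1B2 calls were lost without miR-NC replicate C (adjusted p = 0.066 and 0.053), that of the second dim probe also without miR-NC replicate B (-0.43, adjusted p = 0.064), and the mean of all EEF1B2 probes gave -0.21 (adjusted p = 0.12). The 2 called genes of 15 (13.3%), EEF2K and ETF1, stand beside the same background of 7.96%. By the methods' t-test after adjustment no gene of either list passed (0 of 30 and 0 of 15, against 0.979% of all probes). At an unadjusted p under 0.05 by that test, 7 and 4 genes passed, against 17.9% of all probes.

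**Figure D5:**
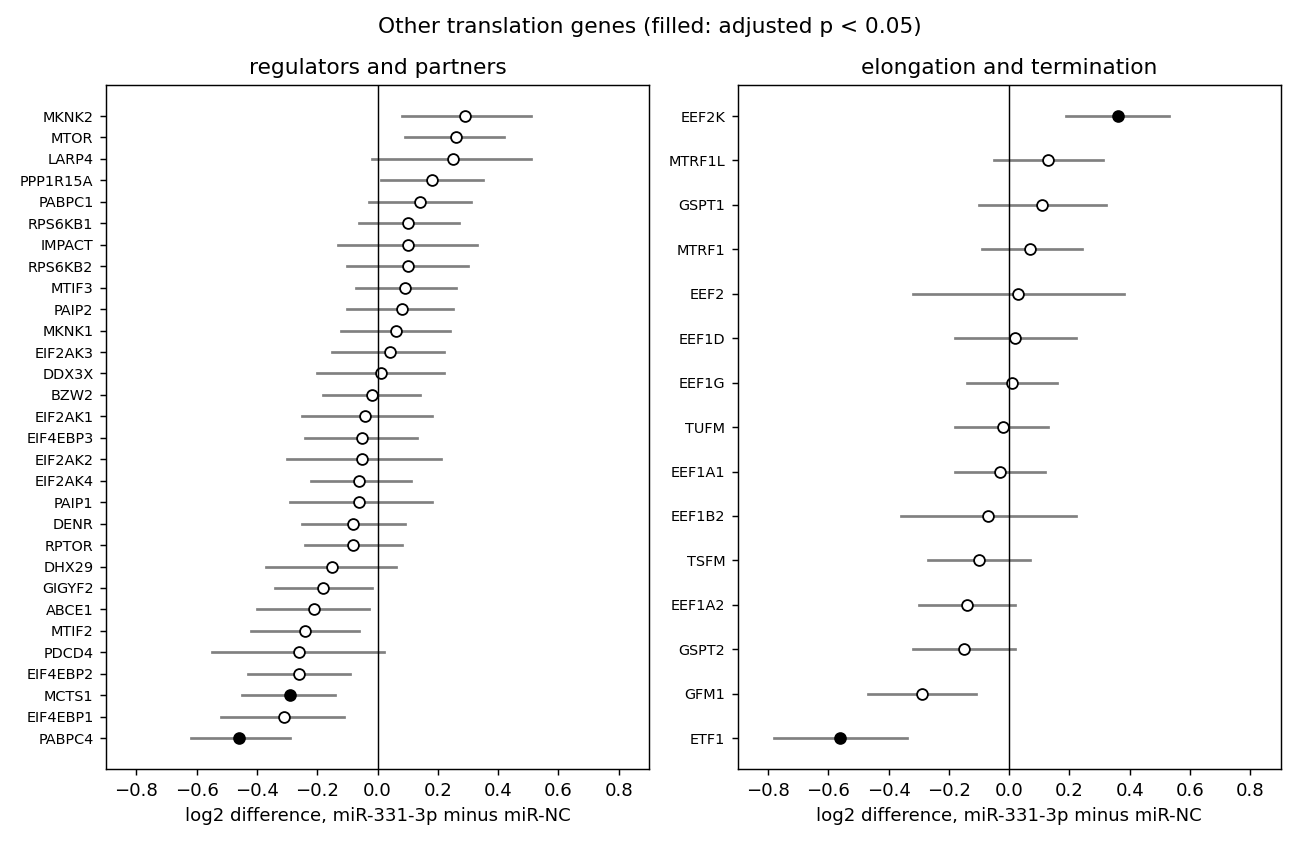
Log2 difference (arrays labelled miR-331-3p minus arrays labelled miR-NC, n = 3 each) of the brightest probe of 30 regulators and partners of the initiation factors (left) and 15 elongation and termination genes (right). Lines are 95% intervals from limma and filled points an adjusted p under 0.05. PABPC4, MCTS1 and ETF1 are filled on the lower side and EEF2K on the higher.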

How the data were processed

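The log2 values used here were deposited by the authors: raw signals of Illumina Human-6 v3 beadchips were background corrected, brought to the log2 scale and variance stabilized with lumi, then quantile normalized in Partek Genomics Suite 6.5. Quantile normalization gives every array the same distribution, so a shift shared by most transcripts would not be seen. In a table of raw signals, 12 columns could not be matched by name with the arrays and were left unused.

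Of 48802 probes, 27577 have a single symbol, 13 have several and were left unnamed, and 21212 are unnamed here. For 27552, the symbol was updated by gene identifier or accession from a GRCh38.p14 annotation, from which no coordinates of genes were taken. The brightest probe stood for its gene. The 16752 probes with a mean of at least 7 were tested with limma 3.58.1 (lmFit and eBayes, no block) under R 4.3.3. The test was two-sided, and p-values were adjusted by Benjamini-Hochberg across those probes with a threshold of 0.05. The fit was tested on simulated data. Precision is limited by having 6 arrays. The members and lists were chosen with earlier results of these data known. Named with values were all members, in each array where they passed the threshold or were among the 6 brightest, and list genes that passed. Values per array were also given for EIF2S2, EIF2S3, EIF2B2, EIF3L, EIF4G1, EIF5, EIF6 and dimmer probes, and values of list genes that did not pass, all chosen after they were seen. Alternatives were other filters, the methods' t-test, array weights, cyclic loess, an intensity trend, a replicate block, each array left out and the mean of a gene's probes. Summaries were made in Python 3.11.15 with scipy 1.17.1 and pandas 2.3.3, and plots in matplotlib 3.10.9.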

Additional observations from a re-analysis of the deposited data

How the results depend on the processing

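Of 14 alternatives, EIF4A2 was called in 13, EIF2A in 11 and EIF2S1 in 9. EIF1 was called in 3, beside them with array weights and with the mean of all probes, and without EIF2S1 when miR-331-3p replicate A was left out. With the methods' t-test after adjustment, 0 initiation factor genes were higher and 0 lower, and 0 genes passed in each of the other lists. With array weights 5 regulators and partners passed and with an intensity trend 1, against 2. With 1 array left out, 1 initiation factor gene was higher in every case, 0 to 2 were lower, the median difference ran from -0.052 to 0.005, and 1 to 5 regulators and 1 to 3 elongation and termination genes passed. The causes were not tested. The letters A, B and C were not shown to pair the arrays: same-letter deviations had correlations of -0.043, 0.017 and 0.224, the highest for an array being its own letter only in C. A fit with the replicate block had 1 gene higher and 2 lower, and 3 regulators in place of 2. No value changed direction among called probes. Values from raw signals were not run, and probes with signals near 7, as for EIF4E and EIF3C, are too dim to show small differences.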
